A study of Rattus norvegicus with 16 samples.

Results

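The comparison described here is that of cross-fostered control litters (CC) with control litters left with their birth mothers (C), in the livers of adult male Sprague-Dawley rats. Its members are the 8 arrays whose titles name these groups, 4 of CC and 4 of C, out of 16 arrays in all. In both groups the dams received only corn oil, from gestation until postnatal day 20, and the CC litters were moved at birth to another control dam. The livers were taken at 78 to 86 days of age, long after weaning. Each group held 8 male pups, and each array carried RNA pooled from 2 rats of a group, so that 4 pools are the replicates and the spread between single animals was averaged away within them. The labels do not say which pups shared a litter or a foster dam, so the p-values measure only the spread between these pools. The other 8 arrays, M and MM, came from litters whose dams received 1.0 mg/kg/day of mixed contaminants (methyl mercury, PCBs and organochlorine pesticides), without and with fostering, and are used only to ask whether the fostering difference was another one there. The description field of the M arrays calls them a control whereas title and treatment name the mixture; they are treated as exposed here.

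Cross-fostering changes the dam that nurses and grooms a litter, and in rats maternal care and handling in the first days of life are known to bear on the stress axis, which acts on the liver through glucocorticoids. The liver answers such signals with genes of gluconeogenesis, lipid synthesis and steroid breakdown. Many of these are also driven by the circadian clock and by feeding. In exposure studies the procedure separates what reaches a pup before birth from what reaches it through milk, and the control litters show what the procedure does without any chemical.

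All 8 arrays lay on a single slide, 2 of each group in each of its 2 rows, and the row was a term in the fit. Every array carried liver RNA in the red channel (Cy5) and a universal reference RNA from 14 rat cell lines in the green channel (Cy3), with no dye swap. A value below is the log2 ratio of liver over reference, so that values above 0 are brighter in liver. Liver signal was well above background for 36.1% to 40.1% of probes per array, and the arrays correlated with each other at 0.963 to 0.993. No measure of array quality separated the groups: over 6 such measures the exact two-sided permutation p was 0.629 or more (adjusted p = 1.00, smallest possible p = 0.0286). The C pool 11 had the lowest share of detected liver probes (36.1%) and the largest variation between repeated liver spots (31.3%, against 9.54% to 22.4% on the other arrays). The label of the tissue held, since all 15 tested hepatocyte markers stood above the reference on every array, with a median level of 6.68.

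No gene could be called different between CC and C after adjustment for the number of features tested. limma called 0 of 10711 tested features at an adjusted p under 0.05 (0% called), and the smallest adjusted p was 0.998. At an unadjusted p under 0.05 there were 287 features, 2.68% of those tested, where an even spread of p-values gives 536. Of these 287, 108 were higher in CC (1.01% of all tested) and 179 lower (1.67%). The 4 C and 4 CC values did not overlap for 92 features (0.859%), 42 with CC higher (0.392%) and 50 with CC lower (0.467%). On the ratios used here, with an offset of 50 in each channel, the differences were small as well as uncertain. Their median size was 0.063 on the log2 scale and the 95th percentile 0.22, with a median standard error of 0.096. For 99.3% of features the 95% interval held no change beyond 2-fold in either direction, and for 95.4% none beyond 1.5-fold. Neither small nor larger differences were called with 4 pools a group. Among the tested features, 21 differed by more than 1.5-fold and 3 by more than 2-fold, and 0 of these passed the adjusted test. In the same fit the slide row called 1532 features, with a median size of 0.15, where the group called 0. The sizes and intervals above hold for the ratios used here. With the scanner software's own log ratio St6galnac3 stood at -1.48 (-0.44 here) and Ednra at 0.87 (0.56 here). Akr1c1, in contrast, stood at -0.042 (-0.47 here).

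**Figure D1:**
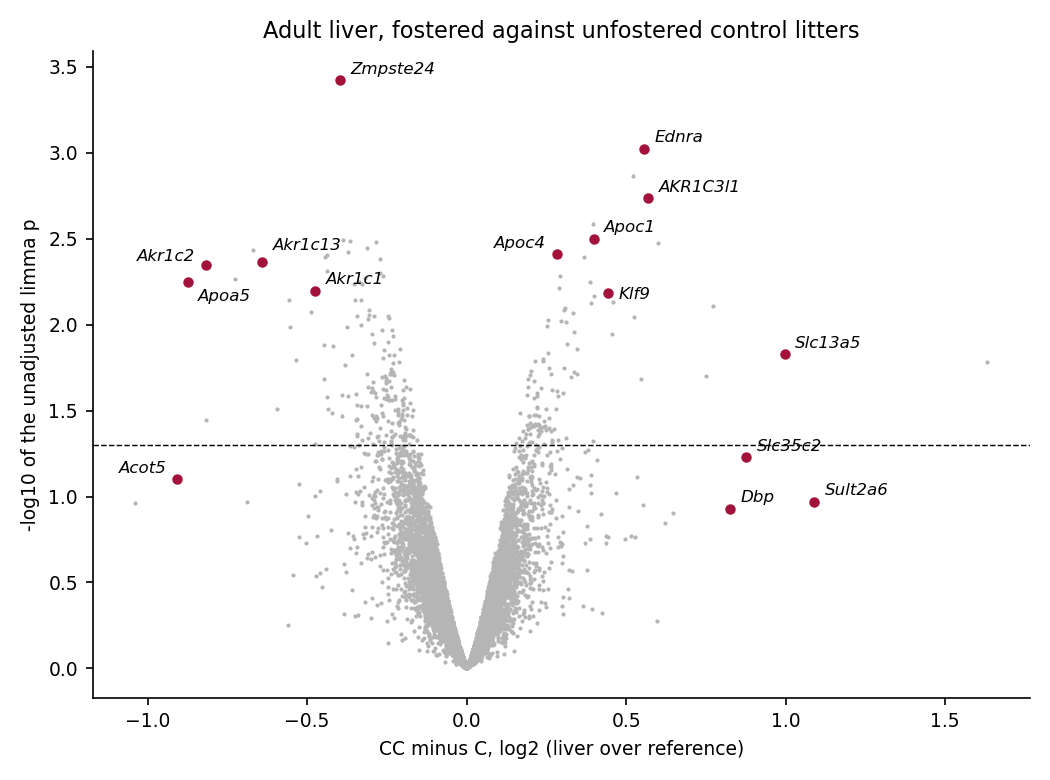
Each point is 1 of the tested features, with CC minus C on the log2 scale on the horizontal axis and -log10 of the unadjusted limma p on the vertical axis; the dashed line marks the 0.05 threshold. Named points are genes described in the text, and no point passed the adjusted threshold.

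The genes below led the comparison by p-value among those with separated pools. They are given as values, since none passed the adjusted test, and their intervals take no account of having been picked from 10711 features. Zmpste24 had the smallest p of all. It encodes the zinc metalloprotease of the endoplasmic reticulum and nuclear envelope that cuts prelamin A to mature lamin A. Its log2 ratio was 1.31, 1.33, 1.41 and 1.41 in the C pools 9 to 12. In the CC pools 1 to 4 it was 1.05, 0.90, 1.01 and 0.91. All CC pools were below all C pools, and each group was tight (SD 0.053 in C and 0.074 in CC). The difference was -0.40 ± 0.073 (SE, n = 4 per group), 1.32-fold lower in CC (95% interval -0.56 to -0.23, unadjusted p = 0.000379, limma adjusted p = 0.998). It was -0.34 within the first slide row and -0.45 within the second, and -0.29 in the liver channel alone. Of the 9 tested genes of prelamin processing and the nuclear lamina, 7 were below 0 and 2 above, with a median of -0.052 beside -0.0081 over all features. By slide row that median was 0.016 and -0.14, and it was -0.012 without CC pool 4. The farnesyltransferase subunits Fnta and Fntb, which prepare prelamin for cleavage, stood at 0.037 and -0.082. The methyltransferase Icmt stood at -0.064 and Lmna, which encodes lamin A itself, at -0.043. Apart from Zmpste24, no gene of this list had an unadjusted p under 0.05.

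Ednra, the gene of the endothelin A receptor that mediates constriction of vessels, was next. Its log2 ratio was 0.90, 0.74, 0.37 and 0.75 in the C pools 9 to 12. In the CC pools 1 to 4 it was 1.24, 1.5, 0.96 and 1.28. The lowest CC pool lay just above the highest C pool. The difference was 0.56 ± 0.12 (SE, n = 4 per group), 1.47-fold higher in CC (95% interval 0.29 to 0.82, adjusted p = 0.998). It was 0.55 and 0.56 within the slide rows and 0.31 in the liver channel alone. The reference channel, which holds the same RNA on every array, moved by -0.16 at this probe. On the array of C pool 9 the reference stood at 7.62, against 6.96 to 7.06 on the other arrays. In the liver channel the pools overlapped, with C pool 9 at 7.16 within the CC range of 6.97 to 7.17. A second Ednra probe was above background on no array, so the value rests on a single probe. The endothelin B receptor Ednrb stood at -0.072 and the converting enzyme Ece1, which makes the ligand, at 0.058. In all, 8 of 10 tested genes of endothelin signalling and vascular tone were above 0, where 46.6% of all features were, and their median was 0.084, or 0.023 without C pool 11. Markers of the liver sinusoidal endothelium also stood above 0 (12 of 12 tested, median 0.12), and their part in these values was not tested. Ednra was the only member of this list with an unadjusted p under 0.05.

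The aldo-keto reductases of the Akr1c family held 3 of the 12 genes named as lower in CC. These enzymes reduce ketone groups of steroids, bile acid precursors and xenobiotics with NADPH, and in rat they sit side by side on chromosome 17. Akr1c2 had a log2 ratio of 7.15, 6.92, 6.89 and 6.88 in the C pools 9 to 12. In the CC pools 1 to 4 it was 6.78, 5.77, 6.38 and 5.63. The C pools were close together, while CC pools ranged over more than 1 unit. The difference was -0.82 ± 0.22 (SE, n = 4 per group), 1.76-fold lower in CC (95% interval -1.31 to -0.32, adjusted p = 0.998). Akr1c13 was 3.14, 2.68, 3.24 and 3.02 in C and 2.66, 2.17, 2.64 and 2.05 in CC. That gave -0.64 ± 0.17 (SE), 1.56-fold lower, with the highest CC pool just under the lowest C pool. Akr1c1 was 7.11, 7.07, 7.65 and 7.07 in C and 6.82, 6.68, 6.90 and 6.60 in CC. Its difference was -0.47 ± 0.14 (SE), and C pool 11 stood apart above the other C pools. All 3 were lower within each slide row: -0.76 and -0.88 for Akr1c2, -0.49 and -0.79 for Akr1c13, and -0.34 and -0.61 for Akr1c1. In the liver channel alone the differences were -1.17, -0.51 and -0.50 in the same order. The pools did not overlap in that channel for Akr1c2, but did for Akr1c13 and Akr1c1. With the scanner software's own log ratio, however, Akr1c2 stood at 0.056 and Akr1c1 at -0.042. The reference signal of the Akr1c2 probe was low, from 6.17 to 6.70 on the log2 scale against 10.2 to 12.1 in liver. Without background correction Akr1c2 stood at -0.76 and Akr1c1 at -0.47, and in the authors' deposited value table at -0.77 and -0.46.

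The neighbour AKR1C3l1 went the other way. It was 0.64, 0.46, -0.075 and 0.41 in C and 0.90, 1.27, 0.64 and 0.91 in CC, a difference of 0.57 ± 0.13 (SE, n = 4 per group, adjusted p = 0.998). It is named after its values were seen, and liver signal above background was seen on 1 C array and 3 CC arrays only. In the GRCr8 assembly the family runs along chromosome 17 in the order Akr1c2, Akr1c1, AKR1C3l1, Akr1c12l1, Akr1c13, Akr1c19, Akr1c12, Akr1c3, Akr1c14 and Akr1c15. The log2 differences in that order were -0.82, -0.47, 0.57, -0.16, -0.64, -0.056, -0.089, 0.073, 0.12 and 0.030. The 3 lower genes were not a run of neighbours, since AKR1C3l1 and Akr1c12l1 stand between Akr1c1 and Akr1c13 on the chromosome. Over all 15 tested aldo-keto reductases of the list, 3 had an unadjusted p under 0.05 and were lower, where 1.67% of all features were. In the list 8 were above 0 and 7 below, and the median was 0.0055. The list was chosen with earlier results of these data known, so the count is no test of the family. AKR1C3l1 is not in that list. It was higher in CC with an unadjusted limma p of 0.00183, but it entered the test through its CC arrays only. Closely related family members can hybridise to the same probe, which could not be examined because no probe sequence was used here.

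The stretch just before the transcription start is shown for the family members that differed most. It is also shown for Akr1c12, the near copy of Akr1c13 that did not share its value. Each line gives the 250 bases before the annotated start, 5′ to 3′ in the direction of the gene (RefSeq, GRCr8). Capitals mark matches on either strand to any of 3 motifs, and no matches overlapped in the stretches printed. The antioxidant response element was searched as TGACNNNGC. The nuclear receptor half-site was searched as AGGTCA. The TATA box was searched as TATAAA. Of 7 genes looked up for this and the apolipoprotein set, 6 had an entry; Akr1c1 is named only.
Akr1c2, chr17:70717881-70718130, minus strand: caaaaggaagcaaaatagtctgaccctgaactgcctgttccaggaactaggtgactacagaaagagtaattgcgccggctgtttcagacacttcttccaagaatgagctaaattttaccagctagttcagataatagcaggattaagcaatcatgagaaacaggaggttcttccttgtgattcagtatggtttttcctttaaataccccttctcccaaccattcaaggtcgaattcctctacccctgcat
Akr1c13, chr17:70894386-70894635, plus strand: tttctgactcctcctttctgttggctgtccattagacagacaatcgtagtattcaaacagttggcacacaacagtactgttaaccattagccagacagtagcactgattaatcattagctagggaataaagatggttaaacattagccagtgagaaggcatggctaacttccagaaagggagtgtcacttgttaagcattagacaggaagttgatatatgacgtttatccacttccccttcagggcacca
Akr1c12, chr17:70971413-70971662, minus strand: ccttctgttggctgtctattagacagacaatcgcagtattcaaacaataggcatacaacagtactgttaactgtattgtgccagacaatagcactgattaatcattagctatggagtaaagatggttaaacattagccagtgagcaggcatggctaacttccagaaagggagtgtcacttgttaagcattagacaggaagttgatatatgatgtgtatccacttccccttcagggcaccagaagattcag
AKR1C3l1, chr17:70757251-70757500, plus strand: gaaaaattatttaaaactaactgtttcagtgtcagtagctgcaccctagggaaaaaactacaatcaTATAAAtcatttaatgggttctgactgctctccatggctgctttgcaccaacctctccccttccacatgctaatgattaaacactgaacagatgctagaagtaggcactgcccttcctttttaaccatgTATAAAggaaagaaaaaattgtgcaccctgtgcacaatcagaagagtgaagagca
After global alignment the windows of Akr1c13 and Akr1c12 shared 223 of 250 bases (89.2%), while the other pairs among these 4 genes shared 42.8% to 49.6%. The log2 difference was nonetheless -0.64 ± 0.17 (SE) for Akr1c13 and -0.089 ± 0.068 for Akr1c12, whose pools overlapped at 4.96 to 5.04 in C and 4.87 to 4.97 in CC. Whether these 2 differences differ from each other was not tested. The antioxidant motif, found in 10.1% of all 33469 RefSeq windows of this length, was in none of the printed ones. The TATA motif, found in 12.9% of all windows, had 2 matches in AKR1C3l1, at 184 and 55 bases before the start.

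**Figure D2:**
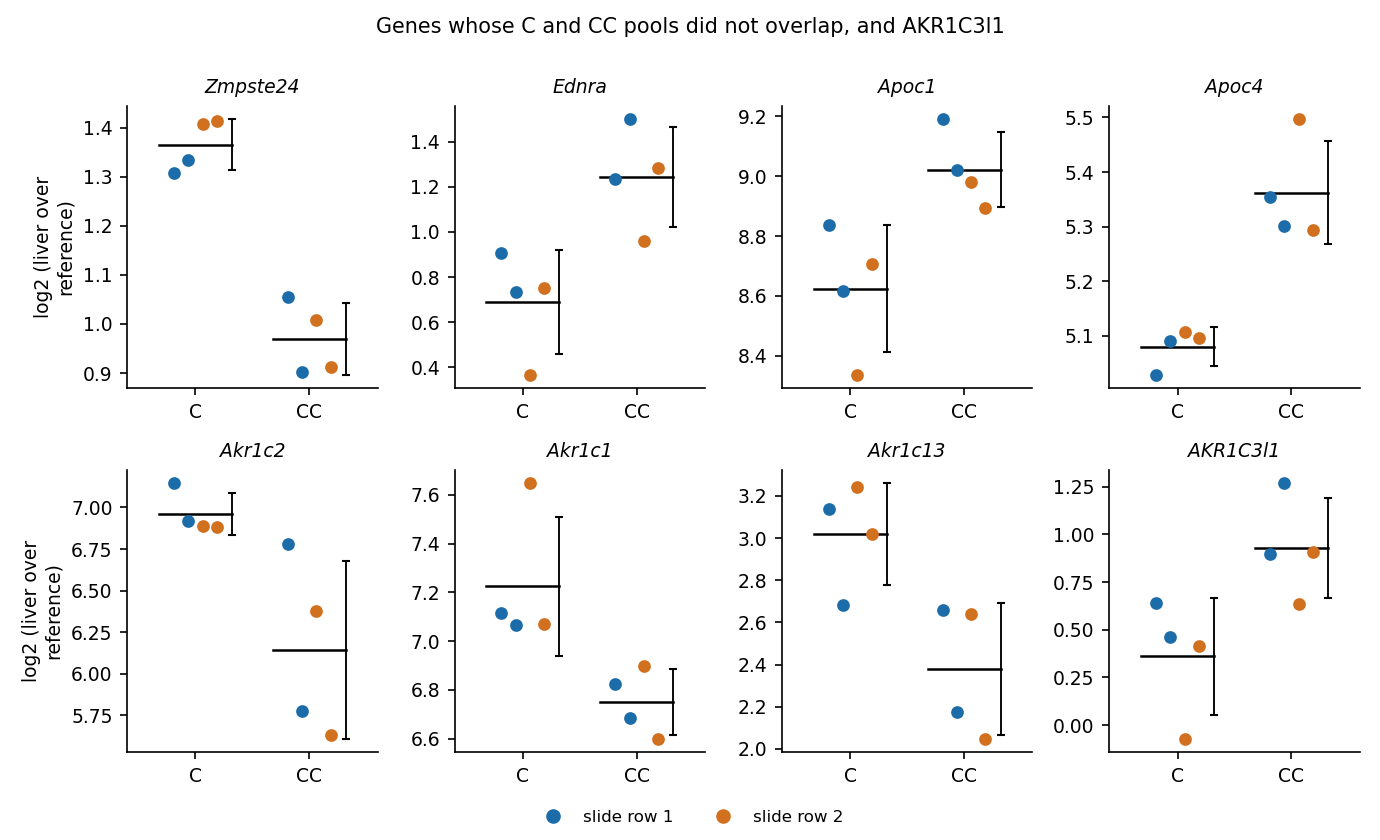
Log2 ratio of liver over reference in each pool for 8 genes, C on the left and CC on the right of each panel, coloured by slide row; horizontal lines are group means and error bars 1 SD over 4 pools. For 7 genes no C pool overlaps a CC pool; for AKR1C3l1 the lowest CC pool (0.64) and the highest C pool (0.64) meet. Akr1c2 stood at 0.056 with the scanner software's own log ratio, above 0.

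A pair of small apolipoprotein genes was higher in CC. Apoc1, whose product rides on VLDL and HDL and inhibits remnant uptake, was 8.84, 8.62, 8.34 and 8.71 in the C pools 9 to 12. In the CC pools 1 to 4 it was 9.19, 9.02, 8.98 and 8.89. The groups did not overlap, and the difference was 0.40 ± 0.10 (SE, n = 4 per group), 1.32-fold higher in CC (95% interval 0.17 to 0.62, adjusted p = 0.998). In the liver channel alone it was 0.20, and the reference moved by -0.084. The liver signals overlapped, with CC pool 3 at 17.26 below C pool 9 at 17.31. Apoc4, a minor VLDL apolipoprotein, was 5.03, 5.09, 5.11 and 5.10 in C and 5.35, 5.30, 5.50 and 5.29 in CC. Its difference was 0.28 ± 0.074 (SE), with C pools within 0.1 of each other, and a second Apoc4 probe gave 0.16. In the liver channel alone Apoc4 stood at 0.43, and the pools did not overlap. Both genes were alike in the rows, at 0.38 and 0.42 for Apoc1 and at 0.27 and 0.30 for Apoc4. They lie next to each other in the cluster Apoc2, Apoc4, Apoc1 and Apoe on chromosome 1. The outer members stood at 0.16 ± 0.10 (Apoc2, which activates lipoprotein lipase) and 0.050 ± 0.084 (Apoe, the ligand for remnant receptors), both with overlapping pools. The windows before the starts of the 2 separated genes are shown for comparison with each other, with capitals as above. Apoc1 has 2 annotated starts, of which the first listed is given.
Apoc1, chr1:88478306-88478555, minus strand: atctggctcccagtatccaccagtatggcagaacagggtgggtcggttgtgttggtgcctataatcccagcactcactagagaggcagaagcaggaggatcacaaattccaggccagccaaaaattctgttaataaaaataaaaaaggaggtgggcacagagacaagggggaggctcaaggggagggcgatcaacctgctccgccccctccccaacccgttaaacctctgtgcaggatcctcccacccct
Apoc4, chr1:88467910-88468159, minus strand: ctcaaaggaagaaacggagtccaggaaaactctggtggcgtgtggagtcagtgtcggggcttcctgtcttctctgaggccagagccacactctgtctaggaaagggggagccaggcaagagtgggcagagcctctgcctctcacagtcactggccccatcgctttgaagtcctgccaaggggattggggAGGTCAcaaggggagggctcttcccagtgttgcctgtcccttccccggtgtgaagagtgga
The nuclear receptor half-site, found in 14.1% of all windows, had 1 match in Apoc4, at 61 bases before the start, and none in Apoc1.

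Apoa5, which promotes clearance of triglycerides, shows how far a ratio depends on its reference. Its log2 ratio was 4.55, 3.98, 3.72 and 4.33 in C and 3.96, 3.01, 3.38 and 2.74 in CC, a difference of -0.87 ± 0.24 (SE, n = 4 per group, adjusted p = 0.998). In the liver channel the probe differed by only 0.055, and in the reference channel by 0.88. The log2 signal of the reference RNA at this probe was 10.5 to 11.2 on the C arrays and 11.3 to 12.4 on the CC arrays, although every array carried the same reference. In the liver channel Apoa5 was not lower in CC. Of the 287 features with an unadjusted p under 0.05, 7 had a reference difference above 50% of the log ratio. The median size of the difference over all features was 0.060 for liver and 0.021 for the reference. Over the 19 tested genes of apolipoproteins and lipoprotein handling, 8 were above 0 and 11 below, with a median of -0.021 that was 0.077 with the scanner's log ratio. The HDL apolipoproteins Apoa1 and Apoa2 stood at -0.021 and 0.00042.

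**Figure D3:**
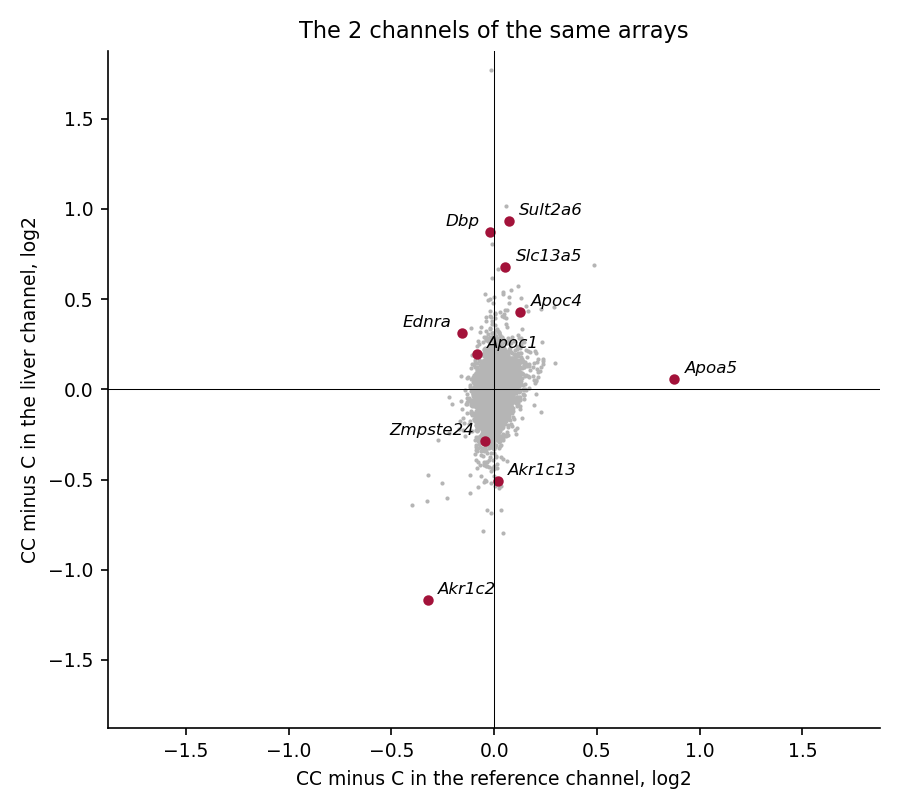
CC minus C in the reference channel (horizontal, log2) against the liver channel (vertical, log2) for every tested feature, both quantile normalised. Most points spread vertically along 0 of the reference axis; Apoa5 lies at 0.88 in the reference and 0.055 in liver.

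Other genes with separated pools and low p-values covered unrelated functions. Higher in CC were Rpp38 (0.39 ± 0.11, SE), a subunit of RNase P, Coq10b (0.31 ± 0.091), a coenzyme Q binding protein, and the small ribosomal subunit protein gene Rps7 (0.31 ± 0.10). The tRNA phosphotransferase gene Trpt1 stood at 0.37 ± 0.097, but liver signal above background was seen on 0 C arrays and 3 CC arrays, so that the ratio was not measured on both sides. The log2 difference of its liver signal was 0.23 with quantile normalised channels. Carnmt1 (0.24), which methylates carnosine, the tetraspanin gene Cd151 (0.21), the cytokine signal suppressor Socs4 (0.20) and the glutathione transferase gene Gstp1 (0.19) had smaller differences. Lower in CC were the class I myosin gene Myo1e (-0.36 ± 0.093), the sialyltransferase gene St6galnac3 (-0.44 ± 0.12) and Stk11 (-0.27 ± 0.072), which encodes the kinase LKB1 upstream of AMPK. Wipi1 (-0.27), of autophagy, the guanylate cyclase subunit gene Gucy1a2 (-0.29), Nudt13 (-0.25) and the mitochondrial transcription factor gene Tefm (-0.33) completed the set with Lrp2. Lrp2, the gene of megalin, stood at -0.26 on its brighter probe and 0.047 on another, and St6galnac3 and Gucy1a2 have second probes that were above background on at most 1 array. Tefm moved by 0.13 in the reference channel, so part of its ratio lay in the reference. For Stk11 the values were 0.77, 0.68, 0.67 and 0.69 in C and 0.53, 0.54, 0.31 and 0.35 in CC, and all CC pools were below all C pools. The limma adjusted p was 0.998 for each of these genes.

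Slc13a5, the sodium-coupled citrate transporter that supplies the liver with citrate for lipid synthesis, had the largest difference among the genes with separated pools. It was 2.80, 2.75, 2.3 and 1.14 in the C pools 9 to 12 and 2.85, 3.17, 3.70 and 3.26 in the CC pools 1 to 4. The difference was 1.00 ± 0.33 (SE, n = 4 per group), 2.0-fold higher in CC, and lay mostly in the second slide row (1.76, against 0.23 in the first). Without C pool 12 it was 0.61. Several other genes differed as much but with overlapping pools, because some pools lay far from the rest. Acot5, a peroxisomal acyl-CoA thioesterase, was 4.64, 4.51, 4.72 and 4.97 in C. In CC it was 2.73, 4.81, 4.74 and 2.93, so that CC pools 1 and 4 stood about 2 units below every other pool. Its difference was -0.91 ± 0.46 (SE), and -0.51 without CC pool 1. The sulfotransferase gene Sult2a6 was 5.91, 3.40, 2.89 and 5.28 in C against 5.85, 4.87, 5.70 and 5.43 in CC. There C pools 10 and 11 were the low ones, and the difference of 1.09 ± 0.61 was 0.53 without C pool 11. Slc35c2, a nucleotide-sugar transporter family member that modulates Notch fucosylation, ran from -0.75 to 0.76 in C and from -0.43 to 1.62 in CC (difference 0.88 ± 0.41). Only 3 features differed by more than 1 unit: Sult2a6, the unnamed probe A_64_P029607 at 1.63 ± 0.56 and the transcript NM_017272 at -1.04 ± 0.59. Cdh17, the gene of liver-intestine cadherin, stood at 0.77 ± 0.23, and Ubd, the gene of the ubiquitin-like protein FAT10, at -0.73 ± 0.20. Acot5, Sult2a6, Slc35c2, Cdh17 and Ubd are named after their values were seen.

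**Figure D4:**
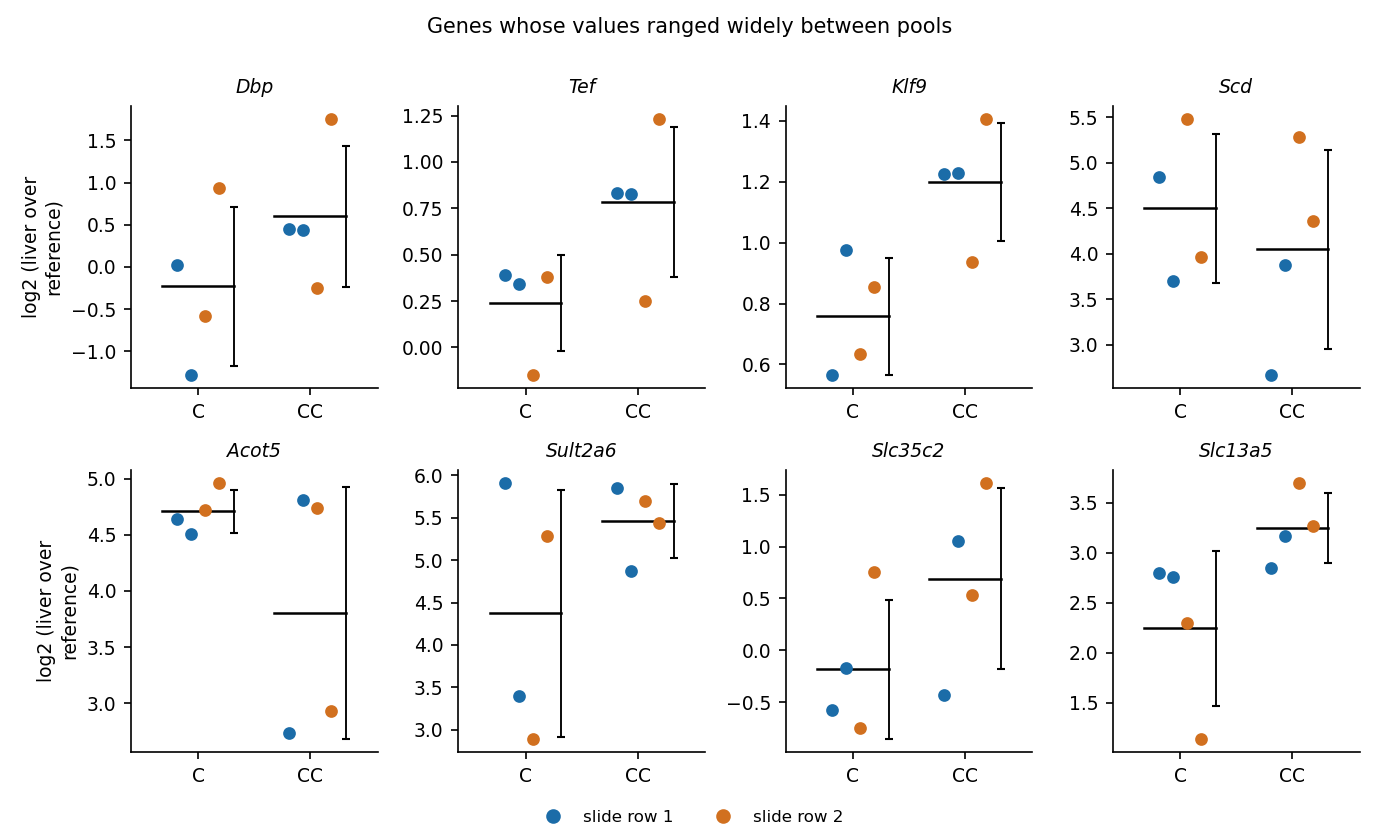
Log2 ratio of liver over reference in each pool for 8 genes whose values ranged widely, C on the left and CC on the right, coloured by slide row, with group means and 1 SD over 4 pools. CC pools 1 and 4 are the low points of Acot5 (2.73 and 2.93), and C pool 12 is the low point of Slc13a5 (1.14).

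Genes of the glucocorticoid response, the route by which early handling is best known to act, were evenly split. Of 24 tested members, 12 were above 0 and 12 below, and the median was 0.0047. The receptor gene Nr3c1 stood at 0.097 ± 0.12 (SE, n = 4 per group), but was well above background on only 2 C and 3 CC arrays. Its chaperone regulator Fkbp5 stood at 0.029 ± 0.12 and Tsc22d3, which encodes the mediator GILZ, at -0.055 ± 0.088. The gluconeogenic Pck1 stood at -0.037 ± 0.14 and the tyrosine aminotransferase gene Tat at -0.098 ± 0.31. For Pck1 the 95% interval ran from -0.34 to 0.27, and for Fkbp5 from -0.23 to 0.29. Klf9, a glucocorticoid-induced and clock-linked Kruppel-like factor, was the only member with an unadjusted p under 0.05. It was 0.56, 0.98, 0.63 and 0.85 in C and 1.23, 1.23, 0.94 and 1.41 in CC, with CC pool 3 below the highest C pool. Its difference was 0.44 ± 0.13 (95% interval 0.16 to 0.73, adjusted p = 0.998), 0.46 and 0.43 within the slide rows.

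Klf9 was accompanied by clock-controlled transcription factors of the PAR bZIP family, which drive daily rhythms of detoxification genes. Dbp was 0.019, -1.28, -0.58 and 0.94 in C and 0.45, 0.44, -0.25 and 1.76 in CC, and 3 probes gave 0.79 to 0.82. With a standard error of 0.48 the difference of 0.82 was within the spread between pools, and it was 0.47 without CC pool 4 and 1.28 without CC pool 3. Tef was 0.39, 0.34, -0.15 and 0.38 in C and 0.83, 0.83, 0.25 and 1.23 in CC, a difference of 0.55 ± 0.20 (SE, n = 4 per group, adjusted p = 0.998), or 0.33 without CC pool 4. Nfil3, which represses the sites that Dbp and Tef activate, stood at -0.25 ± 0.14. The core clock activators Bmal1 and Clock stood at -0.26 ± 0.14 and -0.16 ± 0.080, and the repressors Per2 and Nr1d1 at 0.21 ± 0.12 and 0.21 ± 0.17. Of the 16 tested clock genes, 8 were above 0 and 8 below. The pools spanned more than 2 units of Dbp within C and again within CC, and the labels give no hour of tissue collection.

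Genes of lipid synthesis were below 0 more often than above, but not in both slide rows. Of 18 tested fatty acid synthesis genes, 12 were lower and 6 higher in CC, with a median of -0.13. Row by row the median was -0.20 and 0.038, and without C pool 9 it was 0.053. Scd, the desaturase that makes oleate, showed this spread. It was 4.84, 3.70, 5.49 and 3.97 in C and 2.67, 3.88, 5.28 and 4.36 in CC, a difference of -0.45 ± 0.44 (SE), -1.0 in row 1 and 0.093 in row 2. The elongase gene Elovl6 stood at -0.54, malic enzyme Me1 at -0.31, ATP citrate lyase Acly at -0.25 and the fatty acid synthase gene Fasn at -0.10. Of 25 tested cholesterol synthesis genes, 18 were lower, with a median of -0.098 (rows, -0.15 and 0.023), which was -6.0e-05 without C pool 9. Among them Hmgcs1, the synthase at the entry to this pathway, stood at -0.33 ± 0.18 and Mvd, a decarboxylase further along it, at -0.28 ± 0.12. No gene of either list passed the adjusted test.

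Mitochondrial genes differed little one by one. Of 66 tested subunits of oxidative phosphorylation, 48 were below 0 and 18 above, with a median of -0.065 (-0.081 and -0.059 in the slide rows). Their values ran from -0.31 for Uqcrq, of complex III, to 0.20 for Ndufa10, of complex I. Only cytochrome c, Cycs, had an unadjusted p under 0.05, at -0.17 ± 0.069 (SE, n = 4 per group). The genes of fatty acid oxidation had a median of 0.020 with 21 of 34 above 0. Among them Hadha, a subunit of the mitochondrial trifunctional protein, stood at -0.39 ± 0.098 on its brighter probe and 0.010 on another probe that was also well above background on all 8 arrays. The ribosomal protein genes stood at a median of -0.029, with 52 of 73 below 0. By row this median was 0.073 and -0.15, and it was 0.039 without C pool 11, 0.020 with the scanner's log ratio and 0.019 with the deposited value table.

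Xenobiotic and sex-biased genes, which respond to chemicals and to growth hormone, had no member that passed the adjusted test. Of 30 tested xenobiotic metabolism genes, 20 were above 0, with a median of 0.065 (rows, -0.029 and 0.12), or 0.016 without C pool 11. Their values ran from -0.20 to 0.37, the highest being Cyp3a9 (0.37 ± 0.17, SE). Gstp1, named above for its separated pools, belongs to this list (0.19 ± 0.072, SE). Cyp2b2, a marker of the constitutive androstane receptor, stood at 0.22 ± 0.35 (SE, n = 4 per group) and ranged from 2.10 to 3.98 in C. By slide row it stood at -0.59 and 1.03, and a second probe, well above background on every array, gave -0.025. The male-specific Cyp2c11 stood at 0.048 ± 0.075 (95% interval -0.12 to 0.22), and the growth hormone target Igf1 at -0.0092 ± 0.12. The female-biased Cyp2c12 was 2.90, 5.01, 4.31 and 5.23 in C and 4.45, 2.3, 4.74 and 4.42 in CC, and a single pool of each group lay far below the rest. Cyp7a1, the rate-limiting enzyme of bile acid synthesis, ran from 1.5 to 4.54 in C and from 1.83 to 4.41 in CC. The ranges overlapped, and the difference of -0.20 ± 0.48 was smaller than its error. The coagulation factor gene F9 stood at -0.44 ± 0.12 (adjusted p = 0.998), while the median of 32 acute phase and coagulation genes was 0.025.

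Regulators of DNA methylation and chromatin, which are often measured after early-life procedures, could be tested only in part. Dnmt1 and Dnmt3a were well above background on no array, and the polycomb gene Scmh1 on 2 C arrays and 0 CC arrays, so they were not tested. Of 27 listed regulators 18 were on the array and 12 of these were tested, with a median of -0.027, and the deacetylase gene Hdac1 stood at 0.051.

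Markers of the other cell types in liver were examined with the rest. In pooled tissue, fewer cells of a type and less RNA per cell cannot be told apart. All 12 tested markers of the liver sinusoidal endothelium, the fenestrated lining of liver capillaries, were above 0, with a median of 0.12, and none had an unadjusted p under 0.05. Row by row the median was 0.018 and 0.16, and without C pool 11 it was 0.052. The largest were Eng (0.30 ± 0.13, SE), a co-receptor of TGF-beta, and Kdr (0.24 ± 0.11), a receptor of VEGF. Averaged over the list and centred, the C pools ran from -0.23 to 0.073 and the CC pools from -0.012 to 0.13, so the groups overlapped. Erythroid markers went the other way: 7 of 8 were below 0, with a median of -0.17 (rows, -0.030 and -0.31), or -0.034 without CC pool 4. Hbb-b1, a beta-globin gene, stood at -0.36 ± 0.18, and -0.17 without CC pool 4. The exception was the band 3 gene Slc4a1 at 0.28 ± 0.11. Their averaged level ran from -0.099 to 0.28 in C and from -0.41 to 0.16 in CC. Kupffer cell markers had a median of 0.078, or -0.040 without C pool 9, with 13 of 18 above 0. The complement gene C1qc stood at 0.38 ± 0.17, while Lyz2 of the same list stood at -0.35 ± 0.19. The 15 hepatocyte markers had a median of -0.043 and the 17 stellate cell and fibroblast markers 0.024. Of the latter 11 were above 0, but the only 1 with an unadjusted p under 0.05 was Pdgfrb, at -0.24 ± 0.087. Few B cell, T cell or neutrophil markers could be tested (1 of 8, 3 of 15 and 2 of 11). The part of blood, endothelium or immune cells in the differences of single genes was not tested.

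**Figure D5:**
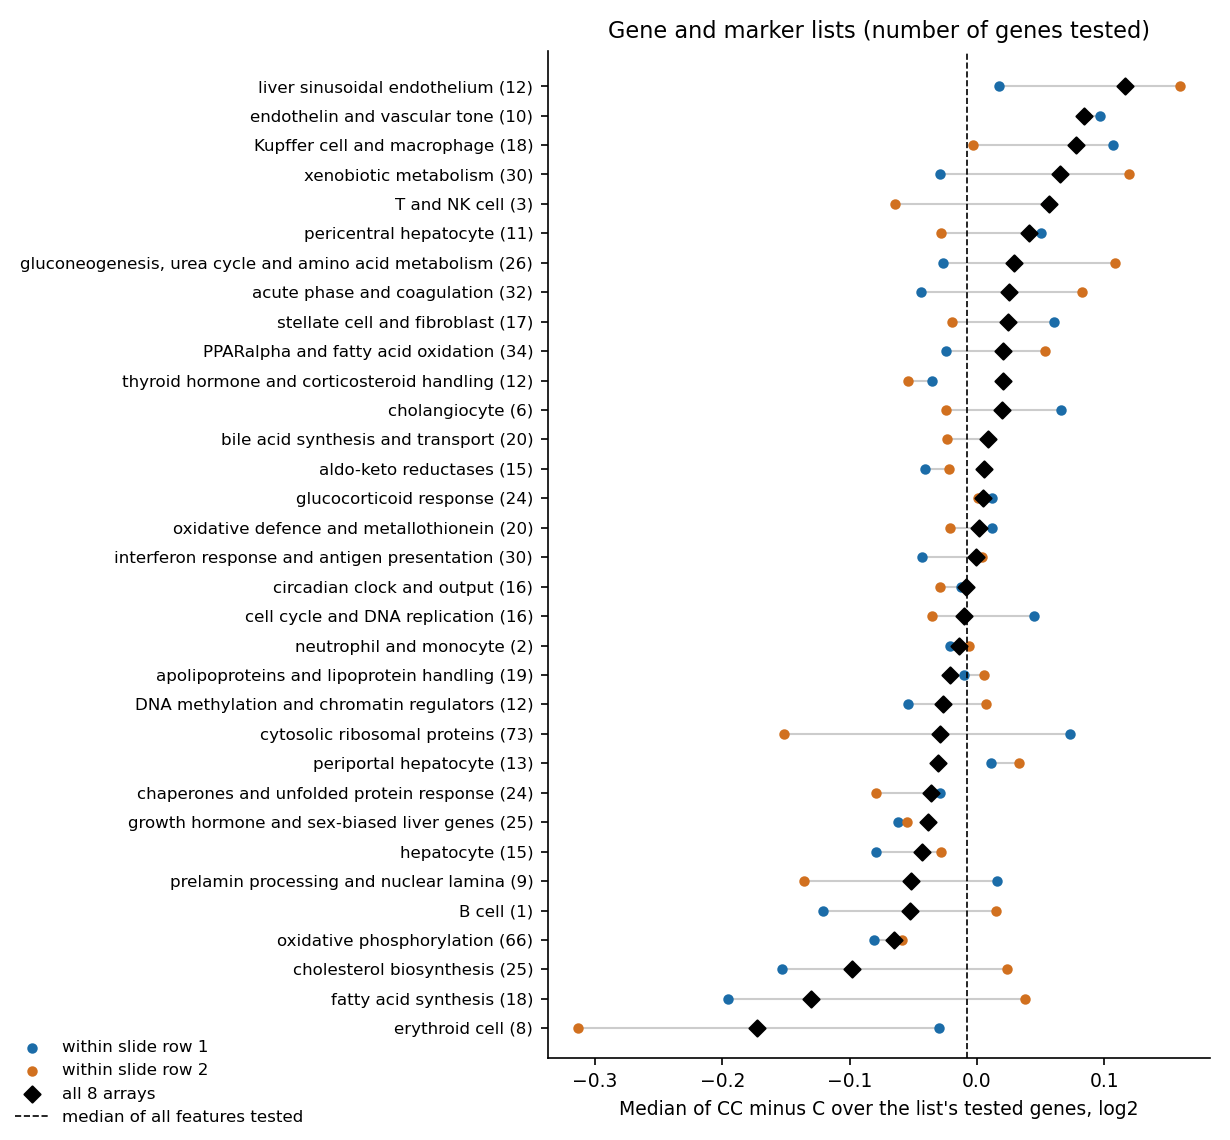
Median CC minus C (log2) of each gene and marker list, with the number of tested genes in brackets: diamonds use all 8 arrays, coloured points each slide row alone, and the dashed line is the median of all features. Endothelial markers lie highest (0.12) and erythroid markers lowest (-0.17), and for many lists the rows lie on opposite sides of 0; ribosomal proteins also stand above 0 with the scanner's log ratio and the deposited table, and apolipoproteins do so in both as well.

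Whether fostering of exposed litters gave another difference was asked with the M and MM arrays, which lay on a second slide. limma called 0 of 10711 features in the difference between the contrasts (0% called), and 450 had an unadjusted p under 0.05 (4.2%). Ednra had the smallest adjusted p. It stood at 0.56 in CC minus C and at -0.50 ± 0.12 (SE) in MM minus M, a difference of -1.05 ± 0.17 (limma adjusted p = 0.289). Akr1c2 stood at -0.82 in CC minus C and 1.03 ± 0.41 in MM minus M. Akr1c13 stood at -0.64 and 0.89 ± 0.35, and Akr1c1 at -0.47 and 0.43 ± 0.13. The differences between the contrasts were 1.85, 1.53 and 0.90 for these 3 genes (adjusted p = 0.931 for each). Zmpste24 stood at -0.0066 ± 0.11 in MM minus M and Apoc1 at -0.027 ± 0.089, both near 0. For Ednra and the 3 Akr1c genes the signs were opposite in control and exposed litters, but no feature passed the adjusted test of that difference. These genes were picked for their CC minus C values, which also enter the differences between the contrasts. The sizes of those differences take no account of that choice.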

How the data were processed

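Liver RNA of 8 pools of 2 rats, 4 C and 4 CC, was hybridised as Cy5 against a Cy3 reference on Agilent 2-colour arrays, with 8 further arrays (M, MM) for the interaction. Per the file headers, the authors' scanner software was Agilent Feature Extraction 11.0.1.1, whose deposited files give median intensity and local background per channel and a log10 ratio. The series also holds the authors' deposited log2 value table; it correlated with loess ratios without background correction at 0.989 to 0.995, with medians of -0.038 to -0.027, so that scale and direction fit liver over reference while its centring stays unknown. The steps the authors took from intensities to that table are not given in the sources used here.

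With limma 3.58.1 in R 4.3.3, median intensities were background corrected (normexp, offset 50) and loess normalised within each array, with control spots at weight 0 and spots marked as outliers left out. Repeated spots were averaged, and the brightest probe per name was kept. Of 30367 probes, 18005 received a symbol by matching accessions to the GRCr8 RefSeq table. Features entered the test when liver signal exceeded background (scanner call) on 3 or more of the 4 arrays of either group. The model held group and slide row, p-values were adjusted by Benjamini-Hochberg over all tested features, and the threshold was 0.05. The script was tested on simulated data. The number of arrays limits the precision.

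Named genes were the 12 higher and 12 lower with the lowest p whose pools do not overlap, up to 4 members of each of 22 pathway and 11 marker lists, and a short fixed set; genes named after their values were seen are said to be so. The comparison, its members and the lists were chosen with earlier results of these data known. Lists are described by counts and medians only. Alternatives were other blocks, backgrounds, normalizations, filters, channels and leaving out each pool. Promoter windows come from RefSeq (GRCr8), aligned with Biopython 1.88. Array coordinates were not used here.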

Additional observations from a re-analysis of the deposited data

Results flagged for a closer look

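In 406 groups of 4 pools, C and CC for 197 named genes and 6 measures of array quality, a single pool stood far from the other 3 in 22 cases (5.42%), where chance gives about 1 in 20. In each, the gap to the nearest other pool exceeded 0.829 of the group's range. C pool 11, the array with the most variable liver spots, was the odd one for Upf2 (-0.0897), Tef (-0.149), Ehhadh (3.00), Ahsp (0.378), Akr1c1 (7.65) and the tyrosine aminotransferase gene Tat (2.06). Of these it was the high pool for Ahsp, a globin chaperone gene, and Akr1c1, and the low pool for the rest. C pool 9 stood apart for Nox4 (0.00889), Nfil3 (0.0955), Gramd1a (-0.494) and Akr1c2 (7.15). C pool 10 was low for Apcs, the gene of serum amyloid P (6.76), and C pool 12 was high for Dbndd2 (-0.808) and the endothelial gene Eng (1.03). Among CC pools, CC pool 1 stood apart for Socs4 (0.367) and Hdac1 (-0.354), CC pool 2 for St6galnac3 (-0.392), Cyp2c12 (2.3) and Slc16a10 (0.868), CC pool 3 for Ahsp (0.268), Or8s5 (0.138) and Hadha (2.52), and CC pool 4 for Gstp1 (-3.31). The values are log2 ratios of liver over reference.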

How the results depend on the processing

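No feature was called under any alternative run for CC minus C or for the interaction. The count at an unadjusted p under 0.05 was 287 and became 123 without the slide row, 99 with all 16 arrays and no row, and 932 of 26913 features without the filter on dim probes. Leaving out each pool in turn gave 232 (without CC replicate 4) to 421 (without CC replicate 2), and the smallest adjusted p was then 0.0697, for NM_001134701 without C replicate 11. Other settings gave 217 to 371, and the reference channel alone, chosen after seeing the data, 262. The interaction count of 450 became 171 without the row blocks, with 0 called, and 445 in the liver channel alone, with 0 called. Of 197 named genes 147 kept their sign in every setting run, as did 4 of 33 list medians. Counted over genes and settings together, 125 values moved beyond 1 SD and 4343 did not; for list medians 19 did and 739 did not. Akr1c2 (0.056 with the scanner's log ratio) and Apoa5 (0.055 in the liver channel) are the exceptions among the genes described first; the cause was not tested. Loess followed by Aquantile leaves log ratios as they are, so it gave the same 287. The number of pools and signal over background limit what can be seen: a feature well above background on under 3 arrays of both groups was not tested. No paired analysis was possible because the C pools are numbered 9 to 12 and the CC pools 1 to 4, so no number is shared.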

Other observations

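Several lists gave medians near that of all features and had no member past the adjusted test. Of 20 tested genes of bile acid synthesis and transport 11 were above 0 (median 0.0089), of 26 genes of gluconeogenesis, urea cycle and amino acid metabolism 15 (0.029), of 30 interferon and antigen presentation genes 14 (-0.00073) and of 20 oxidative defence genes 10 (0.0018). Chaperone genes had a median of -0.036 with 10 of 24 above 0, cell cycle genes -0.010 with 6 of 16, growth hormone and sex-biased genes -0.039 with 11 of 25, and genes of thyroid hormone and corticosteroid handling 0.020 with 7 of 12. Within the last list Srd5a1, a steroid reductase gene, stood at 0.32 ± 0.32 (SE) and the corticosteroid-binding globulin gene Serpina6 at -0.19 ± 0.17. Periportal hepatocyte markers had a median of -0.031 (5 of 13 above 0), pericentral markers 0.040 (6 of 11) and cholangiocyte markers 0.020 (4 of 6). Each of the medians above turned its sign in at least 1 setting or without 1 pool. The serine dehydratase gene Sds, of amino acid breakdown, stood at 0.50 ± 0.34, and 0.13 without C pool 11. The catalase gene Cat stood at -0.17 ± 0.072 and the insulin receptor gene Insr at 0.20 ± 0.087, or -0.015 on a second, dim probe.

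For 39 features the liver signal was well above background on no array of one group and on at least 3 arrays of the other, 30 dim in CC and 9 dim in C (0.364% of those tested). By group means after Aquantile normalisation, the group with detected signal exceeded the other 1.02-fold to 1.22-fold in 37 of them, and did not in 2. These are ratios of measured signals near background, not lower bounds. Dtx3l, a ubiquitin ligase gene, and Gmfb, a regulator of actin branching, were above background on 4 C arrays and 0 CC arrays, and their liver signal differed by -0.15 on the log2 scale in each with quantile normalised channels. A probe near background on every array can fall on either side of the limit, and these differences were small.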
